A study of Mus musculus with 2 samples.

Results

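The enzymes that write and erase cytosine methylation were examined in the suprachiasmatic nucleus (SCN), which houses the central circadian clock of mammals, by RNA sequencing. They were the 10 genes Dnmt1, Dnmt3a, Dnmt3b, Dnmt3l, Uhrf1, Tet1, Tet2, Tet3, Tdg and Apobec1, chosen by name from the 24229 rows of the deposited expression table. Of the 10, 9 were found by name. No row is named Tet3, but 2 rows named B430006D22Rik lie inside the Tet3 gene, one with its Ensembl identifier, and its values are given from them.

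Donor animals were C57BL/6 mice of wild type genotype, aged 68 days after birth. All 16 animals first spent 7 days in constant darkness, after which 8 were placed on a short light-dark cycle (ST) and 8 on a normal one (NT) for 4 weeks. Both groups then returned to darkness, and after 5 days the SCN was cut from brain slices at circadian time 4 h. Each group is 1 library of polyadenylated RNA. The sources used here give neither the cycle lengths nor how many animals a library pools, and they name an RNA kit for the nuclear or cytoplasmic fraction without saying which was taken. With 1 library a group there is no replicate error, so no p-value was computed, and each ratio below compares these libraries and carries a 95% counting interval only.

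Methylation of cytosine in CpG pairs is set by de novo methyltransferases of the Dnmt3 family, with Dnmt3l as a partner that has no catalytic activity of its own. It is copied after DNA replication by Dnmt1, which Uhrf1 brings to hemimethylated sites. The Tet dioxygenases oxidise 5-methylcytosine, and Tdg excises oxidised forms so that base excision repair can restore an unmodified cytosine. Apobec1 is a cytidine deaminase best known for editing the mRNA of apolipoprotein B, and has been considered as a DNA deaminase. Neurons no longer divide, yet Dnmt1 and Dnmt3a stay expressed in the adult brain, and 5-hydroxymethylcytosine, the first product of the Tet enzymes, is abundant there. By its title, the study links the effect of light on circadian behaviour to DNA methylation.

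The libraries held 19476800 counts (ST) and 24790727 counts (NT). Markers of the labelled tissue were present: all 13 SCN markers had reads in both libraries. Avp, vasopressin, was the most abundant at 656 RPKM in ST and 563 in NT. RPKM is the authors' read level per kilobase of gene model and scaled to library size. Of the 13 SCN markers 5 were higher and 8 lower in ST, with 4 intervals above 1 and 3 below. Markers of several other cell types were lower in ST, namely 11 of 11 oligodendrocyte genes (summed level 4948 RPM, the level scaled to library size alone, in ST and 6108 in NT), 12 of 12 microglial genes (323 and 371), 11 of 11 endothelial and mural genes (428 and 499) and 6 of 6 measured meningeal genes (66.4 and 126 over all 7 listed). Lower too were 6 of 6 oligodendrocyte precursor genes (369 and 447). Intervals lay below 1 for 11 oligodendrocyte, 7 microglial, 9 endothelial and mural, 6 meningeal and 6 precursor genes. Over all measured genes 10.2% had an interval below 1, and the share lower in ST was not counted. Other lists were mixed. Of 10 astrocyte genes 3 were higher, and 2 had an interval above 1 and 7 one below (5614 and 5710). Of 6 measured ependymal and choroid plexus genes 4 were higher, with 0 intervals above 1 and 1 below. Of 9 neuronal genes 2 were higher, with 1 interval above 1 and 3 below (4401 and 4485). In bulk tissue, fewer cells of a type and less RNA per cell cannot be told apart.

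None of the methylation enzymes differed between the libraries beyond counting error. Of the 9 found by name, 5 (Dnmt1, Dnmt3a, Tet2, Tdg and Apobec1) reached the mean normalised count of 50 used as a filter, and 4 (Dnmt3b, Dnmt3l, Uhrf1 and Tet1) did not. Of these 5, 0 lay at least 2-fold apart, where 0.251% of all 14343 measured genes did, and 0 had an interval clear of 1, where 18.0% of all measured genes did. Their median log2 ratio of ST to NT was 0.00, with a range from -0.27 to 0.04, beside a median of -0.00 over all measured genes, of which the middle 90% lay between -0.29 and 0.22. Of the 4 below the filter, 0 had an interval clear of 1 and 1, Dnmt3l, was past 2-fold. Among genes with a mean normalised count of 10 to under 50, where Dnmt3b, Uhrf1 and the row named Tet1 lie, 5.22% were past 2-fold and 5.89% had an interval clear of 1. Among those of 1 to under 10, where Dnmt3l lies, these shares were 27.5% and 2.01%. The authors' deposited table gives all 9 rows an adjusted p of 1, from a comparison of the same pair of libraries. How many of all genes share that value was not counted, so it is not read as a result about these enzymes.

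**Figure D1:**
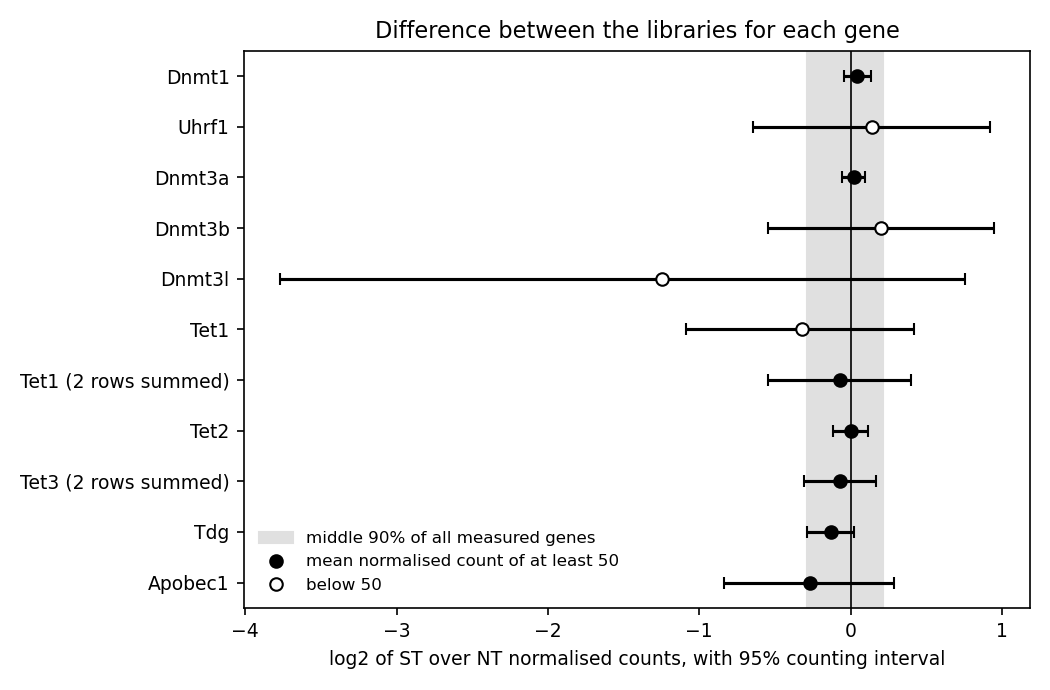
Log2 ratio of normalised counts, ST over NT (horizontal axis, no pseudocount), for each enzyme gene, with 95% counting intervals; filled points have a mean normalised count of at least 50 and open points less, and the grey band is the middle 90% of all 14343 measured genes. Every interval holds 0, and Dnmt1, Dnmt3a and Tet2 have the narrowest.

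Dnmt1, the maintenance methyltransferase (ENSMUSG00000004099, mm9 chromosome 9, 20711650 to 20757317, minus strand), had the highest level per length of the group. It had 1882 counts in ST and 2304 in NT, which corresponds to 18.4 RPKM in ST and 17.7 RPKM in NT. After scaling for depth these were 2114 and 2051 normalised counts, a ratio of 1.03 with an interval of 0.970 to 1.10. The libraries thus differed in Dnmt1 by less than their counting error.

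Uhrf1, the partner that recruits Dnmt1 (ENSMUSG00000001228, chromosome 17, 56442744 to 56462909, plus strand), was scarce, with 28 counts in ST and 32 in NT. Its level was 0.339 RPKM in ST and 0.304 in NT, so that Dnmt1 exceeded it per length 54.3-fold (interval 37.5 to 82.0) in ST and 58.2-fold (41.1 to 85.3) in NT. The ST to NT ratio of 1.10 had an interval of 0.641 to 1.89, so at this depth no difference was detectable. A copy on chromosome X matches 68.0% of the Uhrf1 coding sequence at 98.2% identity and has a row of its own, with 7 counts in ST and 13 in NT. Summed with it, Uhrf1 stood at 35 and 45 counts and a ratio of 0.982 (0.613 to 1.56).

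Uhrf1 is known as a gene of dividing cells, and a list of cell cycle genes is given beside it. Of 14 listed cell cycle genes 7 were measured, 5 higher and 2 lower in ST, with 0 intervals clear of 1 and a median log2 ratio of 0.08. Mki67, the Ki-67 proliferation antigen, had 13 counts in ST and 28 in NT (0.0746 and 0.126 RPKM), Top2a, which untangles DNA in mitosis, 24 and 35, and the replication helicase subunit Mcm6 427 and 492. Per length Mcm6 stood at 7.67 RPKM in ST and 6.94 in NT, above the library medians of 3.36 and 3.23. Mki67 and Top2a lay below these medians, which were taken only over rows with reads in the library. These 3 genes were picked from the list after their values had been seen. The ratio of Mki67 was 0.586 with an interval of 0.279 to 1.17. Mki67 and Top2a lay below the filter, as did Aurkb and Ccnb1, also lower in ST, and Birc5 and Rrm2, which were higher. The intervals of all these genes held 1.

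Among the de novo enzymes, Dnmt3a carried nearly all reads. Dnmt3a (ENSMUSG00000020661, chromosome 12, 3806980 to 3914443, plus strand) had 2450 estimated counts in ST and 3049 in NT, at 12.8 and 12.5 RPKM, and a ratio of 1.01 (0.961 to 1.07). Dnmt3b (ENSMUSG00000027478, chromosome 2, 153475186 to 153513466, plus strand) had 30.9 and 34 counts, at 0.313 and 0.270 RPKM, with a ratio of 1.15 (0.684 to 1.93). Per length, Dnmt3a stood 41.0-fold above Dnmt3b in ST (28.7 to 60.3) and 46.4-fold in NT (33.1 to 67.1). With the annotated exon lengths as divisors these were 24.3-fold and 27.5-fold. The quotient of those values, which does not depend on how the libraries were scaled, was 0.883 with an interval of 0.524 to 1.49, so the balance between the paralogs did not differ beyond counting error.

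Dnmt3l (ENSMUSG00000000730, chromosome 10, 77504692 to 77526367, plus strand), best known from germ cells, was close to absent, with 3 counts in ST and 9 in NT. Its fold of 0.421, ST over NT, had an interval of 0.0733 to 1.69 that spans a large decrease and an increase alike. It was the only one of the 9 past 2-fold, at levels of 0.0519 RPKM in ST and 0.122 in NT, and with a pseudocount of 5 its log2 ratio went from -1.14 to -0.64, which is under 2-fold. All 3 Dnmt3 genes overlap a row on the other strand, and since no source used here says that counting used strand, reads there cannot be told apart. For Dnmt3l this is Aire, with 1 count in ST and 0 in NT. For Dnmt3a and Dnmt3b it is a clone-named row with at most 1 count in either library. Dnmt3b also matches a neighbouring stretch on chromosome 2 (28.5% of the coding sequence at 96.1% identity), whose row holds 0.0645 counts in ST and 1 in NT.

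The promoters of Dnmt3a and Dnmt3l are shown because these genes lie at opposite ends of the de novo group in level and also differ in CpG content, CpG being the site these enzymes methylate. The windows run from 250 bases before to 50 after an annotated start (RefSeq, GRCm38.p6), and capitals mark every CpG. Dnmt3a has 3 such windows with 46, 47 and 18 CpG pairs, and Dnmt3l has 3 with 6, 4 and 3, where the median of 32851 promoters is 7 (quartiles 3 and 20). The first Dnmt3a window (chr12:3806730-3807029, plus strand) has more CpG pairs than 98.4% of promoters, and the first of Dnmt3l (chr10:78042037-78042336, plus strand) more than 43.6%. They were chosen after the levels had been seen, and no methylation was measured in these files.
Dnmt3a: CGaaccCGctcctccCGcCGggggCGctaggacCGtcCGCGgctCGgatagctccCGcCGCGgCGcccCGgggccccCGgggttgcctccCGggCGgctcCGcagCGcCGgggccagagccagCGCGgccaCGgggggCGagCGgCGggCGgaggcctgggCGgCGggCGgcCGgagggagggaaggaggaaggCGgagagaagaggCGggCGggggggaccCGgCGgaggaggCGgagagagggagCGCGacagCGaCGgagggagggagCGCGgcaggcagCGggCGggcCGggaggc
Dnmt3l: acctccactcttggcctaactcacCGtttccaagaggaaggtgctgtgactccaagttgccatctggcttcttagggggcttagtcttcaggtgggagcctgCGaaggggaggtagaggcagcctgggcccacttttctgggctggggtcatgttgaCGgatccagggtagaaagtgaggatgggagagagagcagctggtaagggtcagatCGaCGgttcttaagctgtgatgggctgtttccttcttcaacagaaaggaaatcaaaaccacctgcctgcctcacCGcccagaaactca

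Over all 10 genes, 17 promoter windows were found and 13 had more CpG pairs than the median promoter. Tet2 had the most, with 57 (more than 99.8% of promoters), whereas the Apobec1 window had 9. Tet2 and Dnmt3a, at 57 and 46, and the start of Dnmt1 with 33 belong to the better expressed members, but Uhrf1 (33 at one start) and Dnmt3b (30) were also rich in CpG and had few reads, so CpG content did not order the levels.

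**Figure D2:**
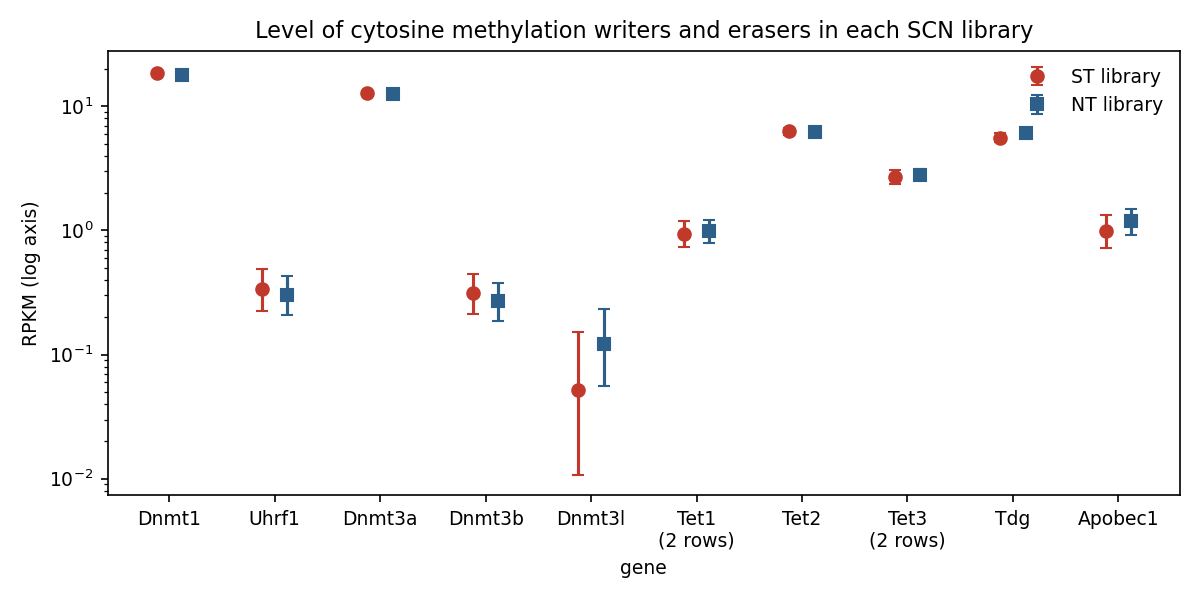
RPKM of each gene (vertical log axis) in the ST library (circles) and the NT library (squares), with exact Poisson counting intervals of 95%; Tet1 and Tet3 are each summed over 2 deposited rows. Levels run from 18.4 RPKM for Dnmt1 in ST down to 0.0519 for Dnmt3l in ST, and the intervals of the libraries overlap for every gene.

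Tet2 was the leading dioxygenase by the deposited rows. Tet2 (ENSMUSG00000040943, chromosome 3, 133126803 to 133207332, minus strand) had 1103 counts in ST and 1392 in NT, or 6.29 and 6.23 RPKM. Its normalised counts were 1239.2 in ST and 1239.1 in NT, a ratio of 1.0 (0.923 to 1.08). The Tet2 transcript level was thus nearly identical in ST and NT.

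The other Tet genes need care, because the deposited gene models cover them only in pieces. The row named Tet1 (ENSMUSG00000075009, chromosome 10, 62301845 to 62328011, minus strand) has a length of 1461 bases, 9.93% of the merged exons of Tet1 in the GENCODE vM1 annotation of the same assembly. A second row, AC166359.2 (ENSMUSG00000047146, 62275115 to 62300993), lies inside the same gene, which that annotation places at 62267318 to 62361866, and adds another 15.2%. The row named Tet1 had 26 counts in ST and 41 in NT, a ratio of 0.800 (0.470 to 1.34), whereas AC166359.2 had 42 and 49, a ratio of 1.08 (0.699 to 1.67). The 2 rows thus point in opposite directions within wide intervals. Summed, Tet1 had 68 counts in ST and 90 in NT, at 0.944 and 0.982 RPKM, and a ratio of 0.954 (0.686 to 1.32).

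Tet3 is held by 2 rows, both named B430006D22Rik. One (ENSMUSG00000072977, chromosome 6, 83348433 to 83391672, minus strand) covers the 5′ part of the gene and had 103 counts in ST and 136 in NT, a ratio of 0.956 (0.733 to 1.24). The other (ENSMUSG00000034832, 83318378 to 83329896), which bears the identifier of Tet3 in the annotation, had 156 and 207 counts, a ratio of 0.951 (0.768 to 1.18). Their sum was 259 and 343 counts, over a model length equal to 44.3% of the annotated exon length. It gave 2.71 RPKM in ST and 2.82 in NT and a ratio of 0.953 (0.808 to 1.12). Both pieces of Tet3 gave nearly the same ratio, and both intervals held 1.

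**Figure D3:**
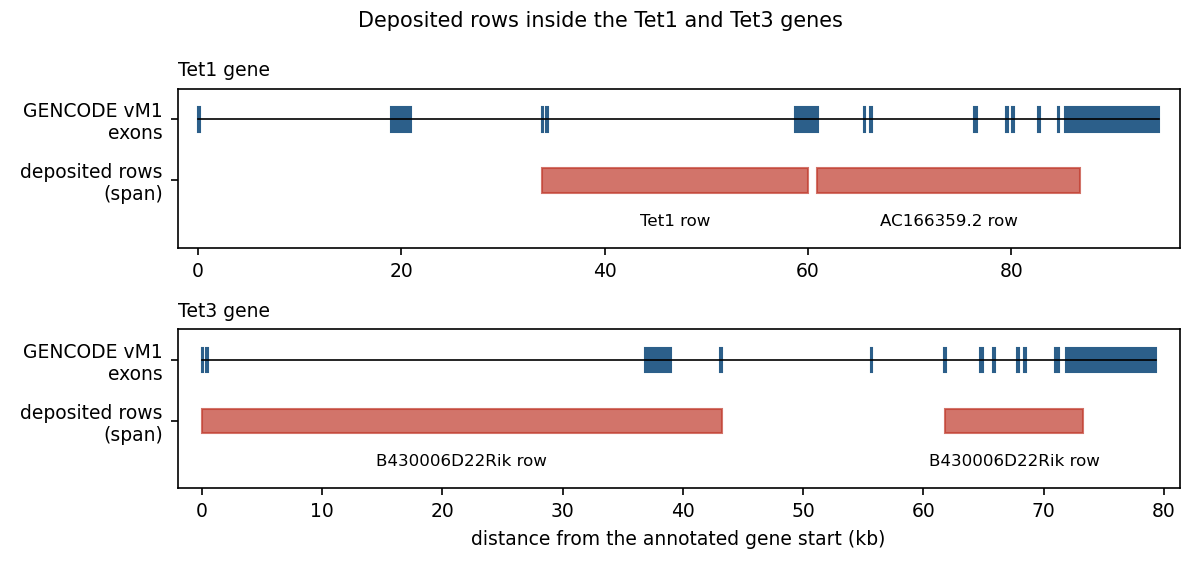
Span of the deposited rows (red) against the exons of Tet1 and Tet3 in GENCODE vM1 (blue), by distance from the annotated gene start in kb. The rows leave the 5′ part of Tet1 and most of the long last exon of both genes uncovered. The summed length of the deposited models equals 25.1% of the annotated exon length of Tet1 and 44.3% of that of Tet3. Overlap with single exons was not computed.

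Within the libraries the order of the dioxygenases was Tet2, then Tet3, then Tet1. Tet2 exceeded Tet3 per length 2.32-fold in ST (2.03 to 2.67) and 2.21-fold in NT (1.96 to 2.5), and it exceeded Tet1 6.66-fold (5.21 to 8.63) and 6.35-fold (5.13 to 7.95). With the full annotated exon length as the divisor, which assigns uncovered exons no reads, the same values were 5.13-fold and 4.89-fold for Tet3 and 25.9-fold and 24.7-fold for Tet1. The order is the same by both lengths, but the second length could not have reversed it. The Tet2 model equals 97.9% of its annotated exon length, so that divisor could only widen its lead. Reads on the uncovered exons of Tet1 and Tet3 are missing from these values, and the size of the gap rests on the gene model. Tet2, Tet1 and Tet3 together had 1430 counts in ST and 1825 in NT, a ratio of 0.989 (0.922 to 1.06).

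Tdg (ENSMUSG00000034674, chromosome 10, 82092573 to 82113544, plus strand) had the interval that came closest to excluding 1. It had 584 estimated counts in ST and 808 in NT, or 5.59 and 6.08 RPKM. Its normalised counts of 656 and 719 gave a log2 ratio of -0.13, a fold of 0.912 with an interval of 0.819 to 1.02. Reads of Tdg are uncertain in their assignment, since 3 copies elsewhere in the genome match at least 98.3% of its coding sequence at 98.7% to 99.3% identity, and 2 of them have rows of their own. The row on chromosome 10 (RP23-40C8.1) had 98.5 and 128 counts and the row on chromosome 15 (AC132878.1) 76.8 and 83.8. Summed over Tdg and these rows the counts were 759 and 1020, with a ratio of 0.939 (0.854 to 1.03), closer to 1 than for Tdg alone. The 3′ end of Tdg also overlaps that of Glt8d2, a glycosyltransferase-domain gene on the opposite strand, by 367 bases. Glt8d2 had 54.6 and 89.1 counts, lower in ST by the estimate (log2 ratio -0.36) but with a fold interval of 0.547 to 1.10. Its part in the value of Tdg was not tested.

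The Tdg promoter is printed because it is the one window of the 17 with both motifs searched, the E-box CACGTG, bound by CLOCK and BMAL1, and the cAMP response element TGACGTCA, bound by CREB. Both motifs read the same on either strand. In chr10:82629588-82629887 (GRCm38.p6, plus strand) the response element begins 135 bases and the E-box 28 bases before the start, and capitals mark them. Among all promoters of this length 7.15% hold the E-box, 1.79% the response element and 0.170% both. One window each of Dnmt3a and Dnmt3l also holds the E-box. The window was chosen after the motif search, and a match is only a run of letters.
Tdg: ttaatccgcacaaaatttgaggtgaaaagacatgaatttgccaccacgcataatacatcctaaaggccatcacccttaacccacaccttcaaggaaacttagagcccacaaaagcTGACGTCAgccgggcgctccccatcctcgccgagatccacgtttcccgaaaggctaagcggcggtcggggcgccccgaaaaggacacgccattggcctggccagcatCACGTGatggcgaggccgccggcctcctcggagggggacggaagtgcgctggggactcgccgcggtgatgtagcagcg

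Apobec1 (ENSMUSG00000040613, chromosome 6, 122527810 to 122552462, minus strand) had 46 counts in ST and 70 in NT, or 0.992 and 1.19 RPKM. Its log2 ratio was -0.27, a fold of 0.829 with an interval of 0.559 to 1.22, so the difference was within counting error. Apobec1 was the only one of the 5 measured genes that reached 1.2-fold, where 9.46% of all measured genes did. This was lost with total-count scaling (log2 ratio -0.26), a pseudocount of 5 (-0.25) and deposited RPKM (-0.26). Apobec1 is known to be expressed in microglia, and the microglial list was lower in ST in 12 of 12 genes, 7 with an interval below 1, at a median log2 ratio of -0.21. None of the markers on that list was at 0 in either library. The part of microglial RNA in the value of Apobec1 was not tested. The related deaminase Apobec3, named after its values were seen and sharing reads with another row, had 19.4 counts in ST and 38.4 in NT, a fold of 0.631 (0.344 to 1.12). Apobec2, of the same family, went the other way, with 31 counts in ST and 31 in NT and a fold of 1.26 (0.742 to 2.15). Apobec2 and Apobec3 both lay below the filter.

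By level per length in the NT library, with Tet1 and Tet3 summed over their rows, the genes fell in the order Dnmt1, Dnmt3a, Tet2, Tdg, Tet3, Apobec1, Tet1, Uhrf1, Dnmt3b and Dnmt3l. In NT the counting intervals of Tet2 (5.91 to 6.57 RPKM) and Tdg (5.67 to 6.51) overlapped, as did those of Apobec1 (0.924 to 1.5) and Tet1 (0.790 to 1.21), and of Uhrf1 (0.208 to 0.430), Dnmt3b (0.187 to 0.377) and Dnmt3l (0.0559 to 0.232). The other neighbours in the order did not overlap. Dnmt1 stood at percentile 82.6 of all rows by RPKM in NT, Dnmt3a at 76.0, Tet2 at 62.6, Tet3 at 49.6 and Dnmt3b at 25.6. In ST the order was the same, and there Dnmt3l (0.0107 to 0.152) lay below Dnmt3b (0.213 to 0.445) without overlap. The order depends on the gene models: per kilobase of annotated exons, Tet1 (0.237 in ST, 0.247 in NT) fell below Uhrf1 (0.338 and 0.303) and Dnmt3b (0.311 and 0.269), in reads scaled to library size.

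Dnmt1 and Dnmt3a were each set against Tet2, the leading dioxygenase. Per length, Dnmt1 stood 2.93-fold above Tet2 in ST (2.72 to 3.16) and 2.84-fold in NT (2.66 to 3.04), and the quotient of these values was 1.03 (0.932 to 1.14). Dnmt3a stood 2.04-fold above Tet2 in ST and 2.01-fold in NT, a quotient of 1.01 (0.921 to 1.12), or 1.23-fold and 1.21-fold by annotated exon length. Tdg was at 0.889 of the level of Tet2 in ST and 0.976 in NT, a quotient of 0.912 (0.797 to 1.04). Each quotient held 1 in its interval, and no writer was set against Tdg. Dnmt3a was at 0.695 of the level of Dnmt1 in ST (0.654 to 0.738) and at 0.706 in NT (0.669 to 0.746), with a quotient of 0.984 (0.907 to 1.07). The deposited model of Dnmt3a is 9828 bases long against 16642 bases of annotated exons, and with the latter the fraction was 0.412 and 0.419. Summed counts gave a ratio of 1.03 (0.971 to 1.10) for Dnmt1 and Uhrf1, of which Dnmt1 made up 98.5% in ST, and of 1.01 (0.961 to 1.07) for the Dnmt3 genes, of which Dnmt3a made up 98.6%.

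**Figure D4:**
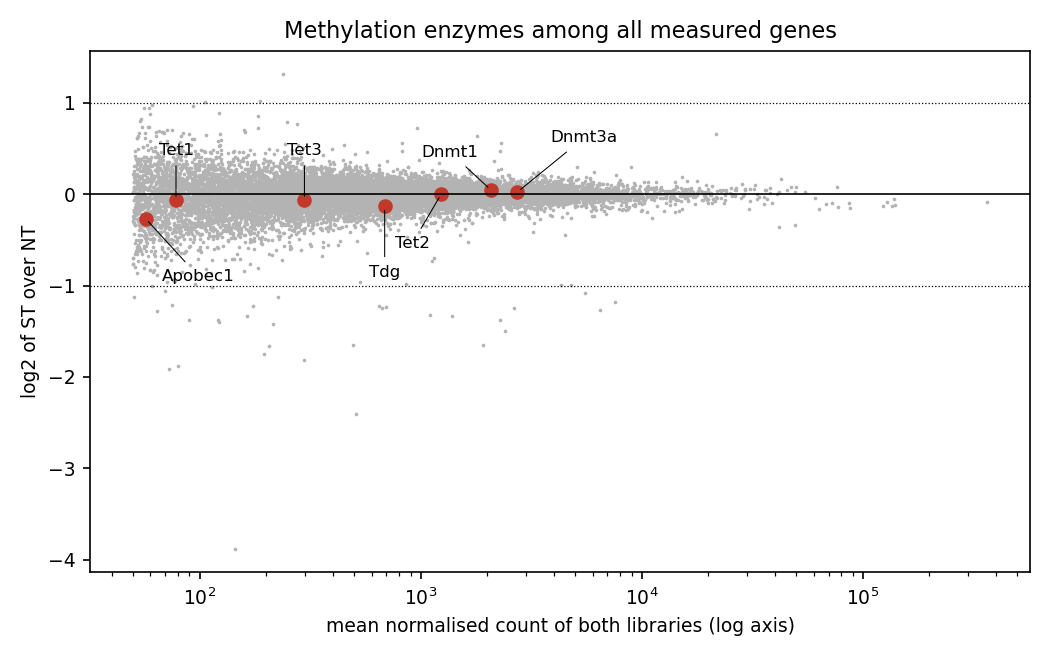
Log2 ratio of ST to NT (vertical axis) against the mean normalised count of both libraries (log axis) for the 14343 measured genes (grey), with the measured enzyme genes in red and Tet1 and Tet3 each summed over 2 rows; dotted lines mark 2-fold. The red points lie between -0.27 and 0.04, inside the cloud of genes with like counts.

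The other genes of the pathway were described by list, and the cell cycle list given above was counted among these pathway lists. Mcm2, named below, is from the cell cycle list. Of 83 listed genes in 6 pathway lists, 63 were measured, 0 of them 2-fold apart, with a median log2 ratio of 0.02 and a range from -0.39 to 0.35. At the ends, and named after their values were seen, were Shmt1, a serine hydroxymethyltransferase of one-carbon metabolism (72 counts in ST, 119 in NT, fold 0.764, interval 0.562 to 1.03), and the replication helicase subunit Mcm2 (114 and 113, fold 1.27, interval 0.973 to 1.67). An interval clear of 1 was seen for 7 of the 63 (11.1%), 6 above and 1 below, where 7.79% of all measured genes had an interval above 1 and 10.2% one below.

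Partners of maintenance methylation had a median log2 ratio of 0.10, beside -0.00 over all measured genes. All 8 measured genes of that list had a log2 ratio above 0. The share of all measured genes above 0 was not computed, so this count is not read as a result about the list. An interval above 1 was seen for 2 of the 8, where 7.79% of all measured genes had one. Below the filter, Cdca7 was higher and Cdca7l lower in ST, both with intervals that held 1. Uhrf2, a relative of Uhrf1 that binds 5-hydroxymethylcytosine, had 1586 counts in ST and 1807 in NT, at 9.50 and 8.50 RPKM, a ratio of 1.11 (1.03 to 1.19). Trim28, a corepressor that protects imprinted methylation, had 3604 and 4252 counts, a ratio of 1.07 (1.02 to 1.12). Uhrf2 thus stood far above Uhrf1 per length in both libraries.

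Methyl donor genes went both ways. Of 12 measured, 6 were higher and 6 lower, with a median log2 ratio of -0.00. Mat2a makes S-adenosylmethionine, the methyl donor of the DNA methyltransferases. Its row, which shares reads with others, had 3498 estimated counts in ST and 4032 in NT, a ratio of 1.09 (1.05 to 1.15). Ahcyl1, a relative of S-adenosylhomocysteine hydrolase, was the one pathway gene with an interval below 1, at 0.938 (0.910 to 0.967) from 7351 and 9892 counts.

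In the list of Tet partners and suppliers of their cofactor, 10 of 17 genes were higher and 7 lower, with a median log2 ratio of 0.01. Gpt2, an alanine transaminase that interconverts glutamate and 2-oxoglutarate, the cosubstrate of Tet enzymes, had 1455 counts in ST and 1668 in NT and a ratio of 1.10 (1.03 to 1.18). Sdhb, a subunit of succinate dehydrogenase, stood at 1.06 (1.001 to 1.12). Of 7 genes on the list of methyl-CpG readers only Mbd3, a subunit of the NuRD complex, had an interval clear of 1. Its ratio was 1.07 (1.01 to 1.14) from 1820 and 2140 counts, and the list median was -0.01. Whether each listed protein binds methylated CpG was not tested.

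Deaminases and repair enzymes of active demethylation had a median log2 ratio of 0.05 over 12 measured genes, 7 higher and 5 lower, with 0 intervals clear of 1. Gadd45b, which is induced by neuronal activity and linked to demethylation, had 91 counts in ST and 106 in NT (1.08, interval 0.810 to 1.45). Mbd4, a glycosylase that like Tdg removes thymine from G:T mismatches, had 118 and 160 counts (0.931, 0.727 to 1.19). Both were picked from the list after their values had been seen.

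**Figure D5:**
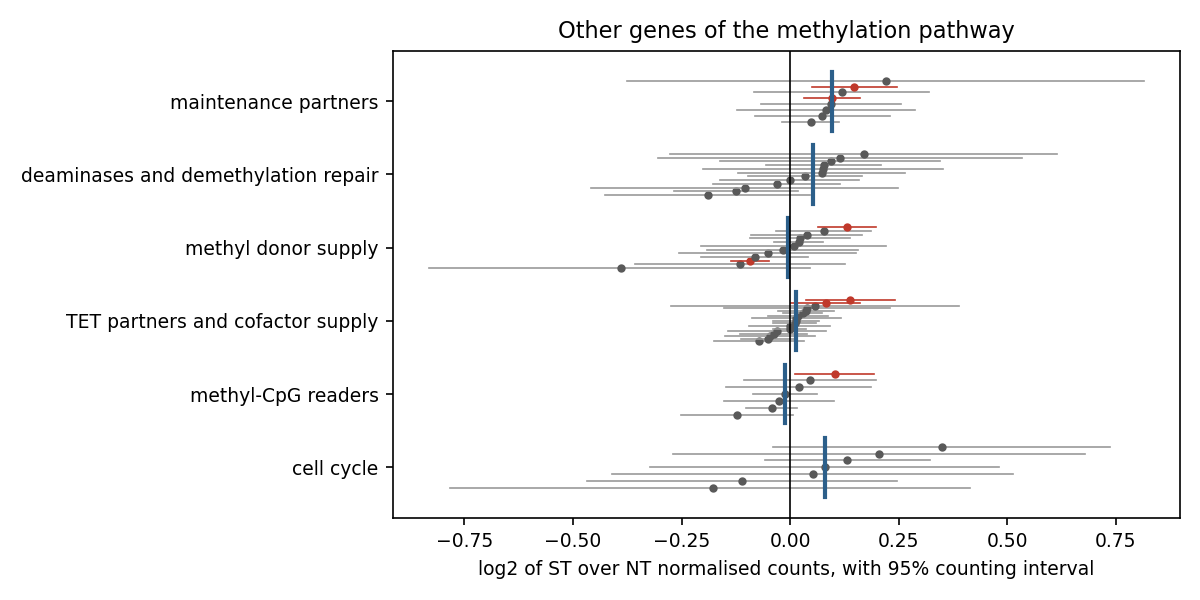
Log2 ratio of ST to NT with 95% counting intervals for the 63 measured genes of 6 pathway lists (horizontal axis), sorted within each list; red marks the 7 genes whose interval excludes 0 and the blue bar is the list median. The cell cycle list is counted among the 6. List medians run from -0.01 to 0.10.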

How the data were processed

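The authors' table of 24229 genes was used, with build mm9 and the tools CASAVA 1.8.2, TopHat 1.2 and DESeq named in the submitters' processing notes with no role or order. Per the file headers it holds estimated counts (fractional where reads are shared), RPKM, RPM, and the authors' fold change, its log2 and p-values. No source used here names the counting tool or says whether it used strand. The table's 3 columns of means over libraries were left aside. Table positions were compared with GENCODE vM1 on NCBIM37 (mm9): 23161 identifiers matched, and 99.6% of these overlapped the annotated gene.

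Counts were rounded, and depth was equalised with size factors by the median of ratios (0.890 in ST, 1.12 in NT). Log2 ratios used a pseudocount of 0.5 and a filter at a mean normalised count of 50, and enzymes under it are still reported with their values. Intervals are exact Clopper-Pearson (ratios, conditional for quotients of ratios) or Poisson (levels) at 95% and cover only counting error; without molecular identifiers, reads of 1 molecule may be counted repeatedly. Copies of coding sequences were sought in mm9 with blastn 2.17.0 (at least 90% identity over 100 bases). On data simulated with counting error alone, 95.9% of the intervals held the true ratio. Since the intervals assume that error, this checks only the calculation. Shared reads, repeated reads and variation between libraries were not simulated.

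Members and lists were chosen with earlier results of these data known. Besides the members, the naming rule took up to 3 measured genes per pathway list and direction with an interval clear of 1.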

Additional observations from a re-analysis of the deposited data

How the results depend on the processing

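No paired analysis was possible because ST and NT are 1 library apiece, which also left no replicate to omit. The count of measured members past the fold rule was 0 in the report, 1 (Apobec1) with a 1.2-fold rule and 1 (Dnmt3l) with no filter, by construction of those settings. With merged reference exons as the length, Dnmt3a over Dnmt1 was 0.412 in ST and 0.419 in NT. Of 139 alternative values, 127 stayed within the counting interval or matched the count, and 12 moved, all of them levels between members by exon length or the counts just given. All 50 alternative log2 ratios of single members stayed within their intervals, total-count scaling moving them by 0.012 and TMM (edgeR 4.0.16) by 0.00013. The median over members was -0.07 over 7 genes with Tet1 and Tet3 summed, an alternative chosen after seeing the data, as were the sums over copies of Tdg and Uhrf1. A pseudocount of 5 took Dnmt3l under 2-fold, and total-count scaling, that pseudocount and deposited RPKM took Apobec1 under 1.2-fold. Depth limits Uhrf1, Dnmt3b, Dnmt3l, Tet1 (named row and sum) and Apobec1, whose intervals are compatible with ratios from below 0.7 to above 1.2.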
